A study of Rattus norvegicus with 8 samples.

Results

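The sodium pump beta subunits and FXYD regulators described here are 8 rat genes, Atp1b1, Atp1b2, Atp1b3, Fxyd1, Fxyd2, Fxyd3, Fxyd4 and Fxyd6. They were found by gene symbol and make up 8 of the 21558 gene symbols and 9 of the 22523 probes on the array, since Fxyd2 has 2 probes and each other gene has 1. The genes were chosen with their difference between the 2 stages of enamel formation already known, so their stage values are given as a description and carry no p-value. RNA was profiled from the incisor enamel organs of 4 male Wistar Hannover rats, 4 weeks old, with no treatment named in the labels. Each rat gave a secretory-stage sample and a maturation-stage sample, hence 4 arrays per stage and 8 arrays in all, and replicate 1 of both stages is the same animal. The enamel organ is a layer of several cell types around the enamel-forming ameloblasts, so the values are those of a mixed tissue dissected at a reference line, and fewer cells of a type and less RNA per cell cannot be told apart.

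The sodium pump moves sodium out of the cell and potassium in at the cost of ATP. Its alpha subunit carries out the transport, and its beta subunit, a glycoprotein, is needed for the alpha subunit to fold and reach the plasma membrane. FXYD proteins are small single-span membrane proteins that bind the alpha and beta subunits and change the pump's affinity for ions or its turnover in a tissue-dependent way. Ameloblasts secrete the enamel matrix in the secretory stage, then remove it and move mineral ions and bicarbonate in the maturation stage, and many of the carriers for these ions run on the sodium gradient that the pump maintains.

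Among the beta subunits, Atp1b3 and Atp1b2 were higher in the maturation stage by 2.38-fold and 2.22-fold, and Atp1b1 differed by 1.58-fold in the same direction without being called. Among the FXYD genes, Fxyd4 was at least 43.6-fold lower and Fxyd3 3.70-fold lower in the maturation stage, and Fxyd1 was 1.86-fold higher. Both Fxyd2 probes and the Fxyd6 probe were not called. A probe was called when limma's adjusted p over all probes was below 0.05 and the stages differed by at least 1.8-fold. The study used the same thresholds. By this rule 3 of the 9 probes were called higher and 2 lower, where 4.60 percent of all probes were called higher and 3.15 percent lower. The 4 maturation-stage values lay wholly on one side of the 4 secretory-stage values in 8 of the 9 probes, as they did in 27.7 percent of all probes. Nothing is read from these counts, since the genes were chosen on this comparison.

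RefSeq promoter windows, here the 250 bases before the start site that the promoter table gives on the GRCr8 assembly, were held for 5 of the 8 genes. The windows of Atp1b2 and Atp1b3 lie wholly outside the annotated gene span, while 65 bases of the Fxyd1 window, 73 of the Fxyd4 window and 247 of the Fxyd6 window lie within it. The windows of Atp1b2 and Atp1b3, which were higher together, and of Fxyd4, the gene with the largest difference among the 9 probes, are printed 5′ to 3′ on the gene's strand as far as they lie outside the annotated gene span. Capitals mark the GC box GGGCGG on either strand and the TATA box core TATAAA. The Atp1b3 stretch is chr8:105821152-105821401, the Atp1b2 stretch is chr10:54823709-54823958 and the Fxyd4 stretch is chr4:152786119-152786295, all on the minus strand.
Atp1b3: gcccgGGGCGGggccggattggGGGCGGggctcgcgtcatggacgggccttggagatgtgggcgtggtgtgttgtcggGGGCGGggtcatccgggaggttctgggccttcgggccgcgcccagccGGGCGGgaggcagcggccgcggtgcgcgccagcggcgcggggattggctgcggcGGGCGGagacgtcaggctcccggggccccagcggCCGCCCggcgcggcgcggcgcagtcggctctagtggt
Atp1b2: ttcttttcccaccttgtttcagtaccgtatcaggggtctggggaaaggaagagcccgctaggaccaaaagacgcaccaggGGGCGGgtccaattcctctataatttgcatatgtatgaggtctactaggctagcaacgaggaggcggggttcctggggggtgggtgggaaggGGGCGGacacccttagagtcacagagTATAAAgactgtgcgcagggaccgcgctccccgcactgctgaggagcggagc
Fxyd4: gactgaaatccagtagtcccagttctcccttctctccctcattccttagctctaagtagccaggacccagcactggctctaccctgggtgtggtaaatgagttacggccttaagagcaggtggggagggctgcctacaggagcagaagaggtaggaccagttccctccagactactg

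The Atp1b3 window held the GC box 6 times and the Atp1b2 window 2 times, against a share of 30.5 percent of 33469 rat promoter windows that held it at all. Of the 5 windows, that of Atp1b2 alone held TATAAA, which was in 12.9 percent of all windows. The Fxyd4 window held 1 GC box, which lies in the 73 bases within the gene span that are not printed. The Fxyd1 window held 1 GC box, and the Fxyd6 window, all but 3 bases of which are within the gene span, held none. AGAACA, an element read by steroid hormone receptors and searched on both strands, was in none of the 5 windows and in 17.5 percent of all windows. G and C made up 79.6 percent of the Atp1b3 window, 66.8 percent of the Fxyd1 window, 58 percent of the Atp1b2 window, 55.6 percent of the Fxyd4 window and 55.2 percent of the Fxyd6 window, with a median of 51.2 percent over all windows. These matches are letters in a window and were not tested against the stage values.

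Signals below are log2 values after background correction and quantile normalization, and raw signals are the deposited bead averages. Each array's value of a probe averaged 23 to 66 beads, and the bead standard error was 2.13 to 5.56 percent of the raw signal. Of the 72 values of single arrays, 65 were detected, that is, brighter than the negative control beads at a detection p below 0.05.

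Atp1b3 encodes the beta3 subunit, which is found in many tissues. Its 4 secretory-stage values were 12.86, 12.94, 12.94 and 13.00 in rats 1 to 4, and its maturation-stage values were 14.13, 14.19, 14.28 and 14.15. The stages were widely separated, with SDs of 0.0586 and 0.0686. The difference, maturation minus secretory, was 1.25 with a standard error of 0.0595, and it ran from 1.15 to 1.34 in the single rats. In the raw signal the probe lay between 6502 and 7428 in the secretory stage and between 18691 and 21081 in the maturation stage.

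Atp1b2 encodes the beta2 subunit, known best from glia, where it was first described as an adhesion molecule. Its secretory-stage values were 6.50, 7.35, 7.09 and 6.67 in rats 1 to 4, and its maturation-stage values were 7.99, 8.22, 8.09 and 7.92. The secretory arrays were the more spread, with an SD of 0.389 against 0.133, and rat 2 was the highest in both stages. The difference was 1.15 with a standard error of 0.172, from 0.87 in rat 2 to 1.49 in rat 1. Without background correction the difference was 0.75, under the 1.8-fold limit. Tubb3 and S100b, from the marker list of nerve and glia, moved in opposite directions beside it, by -2.58 and 1.20 on the log2 scale. Of the 6 probes of that list 1 was called higher, 1 lower and 4 not called, Nefl was not detected on any array, and the summed normalized signal was 589 to 664 in the secretory stage and 280 to 420 in the maturation stage. The part of these cells in the Atp1b2 difference was not tested.

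Atp1b1 encodes the beta1 subunit, the usual beta subunit of epithelia. Its secretory-stage values were 11.73, 11.94, 11.71 and 11.84 in rats 1 to 4, and its maturation-stage values were 12.34, 12.56, 12.37 and 12.59. The stages did not overlap, and all 4 rats were higher in the maturation stage by 0.61 to 0.75. The difference was 0.66 with a standard error of 0.0824, which is below the 1.8-fold limit. The raw signal of this probe was 2968 to 3505 in the secretory stage and 5365 to 7262 in the maturation stage, a wider gap than after normalization, and without normalization between arrays the difference was 1.05 and the probe was called.

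**Figure D1:**
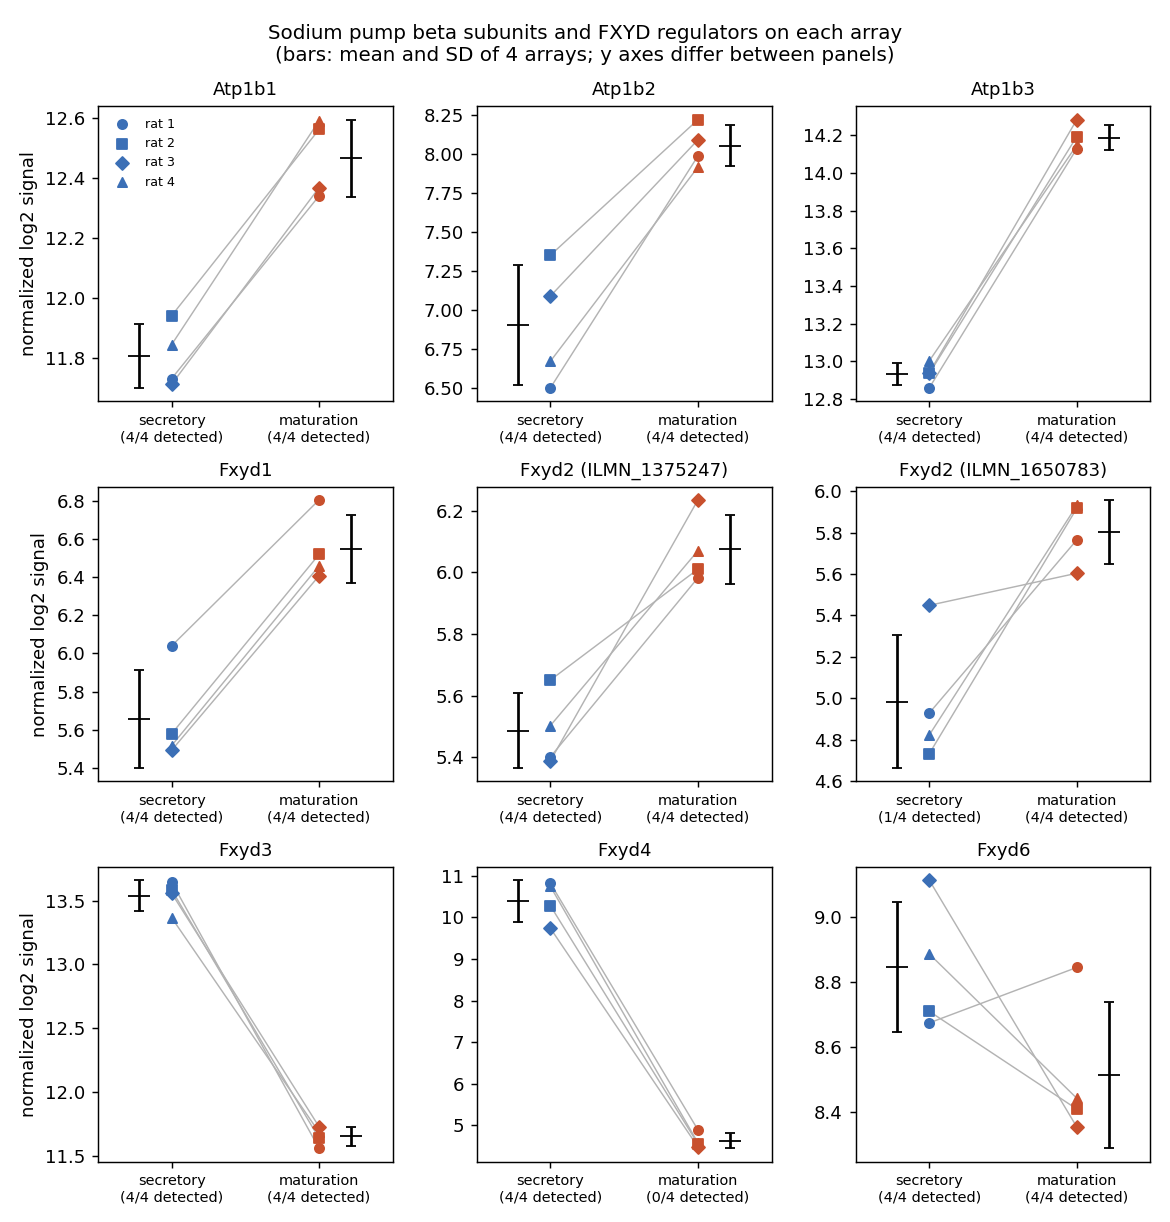
Normalized log2 signal of the 9 probes on each array, with a line joining the 2 samples of each rat and a bar for the mean and SD of the 4 arrays of a stage. In all panels but Fxyd6 the stages do not overlap, and Fxyd4 was detected on 0 of 4 maturation arrays.

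Fxyd4, also known as CHIF, is a regulator best known from the collecting duct of the kidney and from the colon, where it raises the pump's affinity for sodium. Its secretory-stage values were 10.82, 10.28, 9.74 and 10.75 in rats 1 to 4, and its maturation-stage values were 4.89, 4.55, 4.48 and 4.58. None of the 4 maturation arrays detected it, with detection p of 0.0655, 0.404, 0.590 and 0.342 in rats 1 to 4, so only a bound on the fold can be given. The raw signal was 813 to 1577 in the secretory stage and 104 to 128 in the maturation stage. The fitted log2 difference was -5.77 with a standard error of 0.219, from -5.26 in rat 3 to -6.17 in rat 4, and the bound of at least 43.6-fold lower takes the dimmest detected signal in place of the undetected values. Without background correction the fitted difference was -3.70.

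Fxyd3, also known as Mat-8, is a regulator of epithelia such as stomach and colon. Its secretory-stage values were 13.65, 13.59, 13.56 and 13.37 in rats 1 to 4, and its maturation-stage values were 11.56, 11.64, 11.73 and 11.68. It stayed detected on all arrays of both stages, and the stages were separated by many times their SDs of 0.121 and 0.0729. The difference was -1.89 with a standard error of 0.0738, from -1.68 in rat 4 to -2.09 in rat 1. The raw signal was 9670 to 12171 in the secretory stage and 3562 to 3949 in the maturation stage.

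Fxyd1, or phospholemman, is the regulator of the pump in heart and skeletal muscle and a target of protein kinases there. Its secretory-stage values were 6.04, 5.58, 5.49 and 5.52 in rats 1 to 4, and its maturation-stage values were 6.81, 6.52, 6.41 and 6.46. Rat 1 was the highest in both stages, and the difference in single rats was 0.77 to 0.95. The difference was 0.89 with a standard error of 0.135, just past the 1.8-fold limit, on a dim probe with a raw signal of 127 to 141 in the secretory stage and 179 to 245 in the maturation stage. The probe fell below the limit in 5 of 18 other settings, among them 0.84 without secretory replicate 3 and 0.80 without maturation replicate 1. Of the 5 probes of the skeletal muscle marker list 0 were called by limma or by the Student test of the methods, and 1 was higher at limma's unadjusted p below 0.05. Myh4 was not detected on any array, and the summed normalized signal of the list was 194 to 514 in the secretory stage and 211 to 847 in the maturation stage.

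Fxyd2 is the gamma subunit, best known from the kidney tubule, and it is made as variants a and b, which differ at the start of the protein. The array lists 1 probe under the transcript of each variant, and these names are used below, but whether each probe reads its variant alone was not checked. The variant a probe was at 5.40, 5.65, 5.39 and 5.50 in the secretory stage of rats 1 to 4 and at 5.98, 6.01, 6.23 and 6.07 in the maturation stage. The variant b probe was at 4.93, 4.73, 5.45 and 4.82 in the secretory stage and at 5.76, 5.92, 5.60 and 5.93 in the maturation stage. Neither probe was called, although neither overlapped between stages. The differences were 0.59 with a standard error of 0.0817 for variant a and 0.82 with a standard error of 0.151 for variant b, the latter 1.77-fold and just short of the limit. Variant b was detected on 1 of 4 secretory arrays, that of rat 3, and on all 4 maturation arrays. That rat had the smallest difference in variant b, 0.15, where the others had 0.84, 1.11 and 1.18, and without secretory replicate 3 the difference was 0.99, past the limit. Both differences were smaller in other settings, down to 0.22 for variant a and 0.28 for variant b without background correction and to 0.36 and 0.45 with an offset of 50. Rat 3 had the largest difference in variant a, 0.85, where the others had 0.36 to 0.58.

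Fxyd6, or phosphohippolin, is a regulator found in brain and inner ear. Its secretory-stage values were 8.67, 8.71, 9.11 and 8.89 in rats 1 to 4, and its maturation-stage values were 8.84, 8.41, 8.35 and 8.44. The stages overlapped, because rat 1 was 0.17 higher in the maturation stage while rats 2, 3 and 4 differed by -0.30, -0.76 and -0.44. The difference was -0.33 with a standard error of 0.130, and its direction turned under other scalings, to 0.02 with scaling to a common median and 0.22 without normalization between arrays. Without maturation replicate 1 the difference was -0.45. That array also had the highest maturation value, 9.08, of Enam, an enamel matrix gene of the secretory stage. Enam was also high, at 8.22, on the maturation array of rat 4, where the Fxyd6 difference was -0.44. A link between the Enam and Fxyd6 values was not tested.

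**Figure D2:**
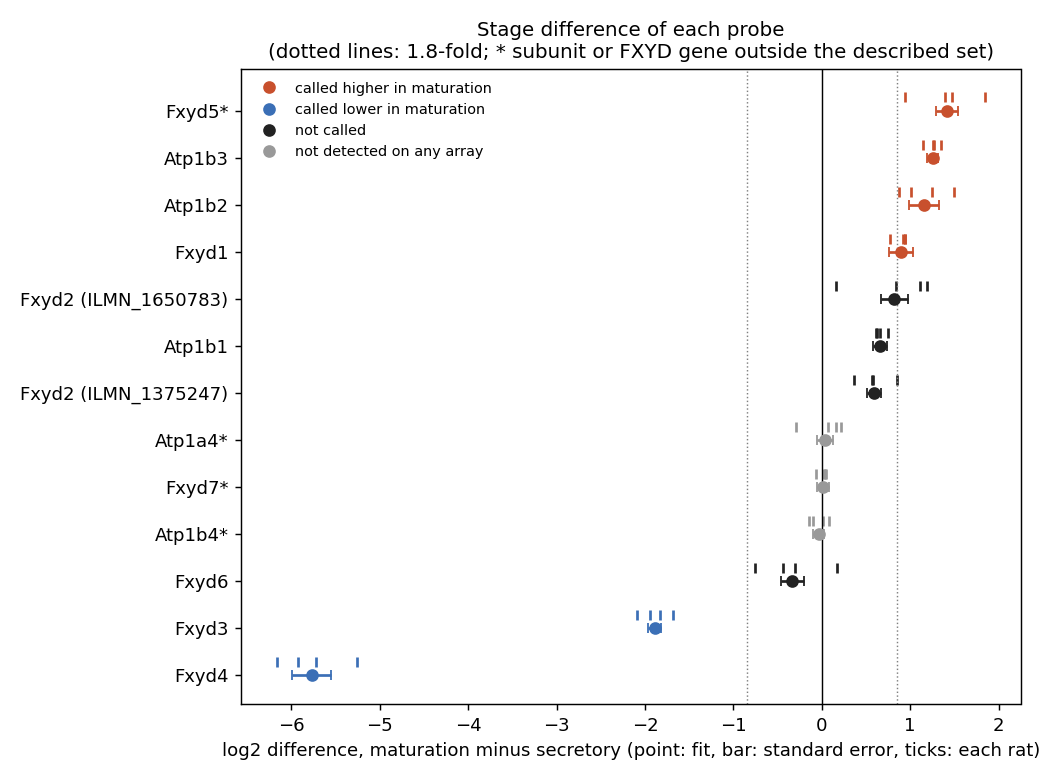
Log2 difference of each probe, maturation minus secretory, with its standard error and the 4 single rats as ticks, for the 9 probes and for 4 other subunit and FXYD probes marked with an asterisk. Fxyd4 lies farthest from 0, its fitted -5.77 being set against an undetected maturation stage and so not exact, followed by Fxyd3 at -1.89, and the probes called higher lie between 0.89 and 1.41.

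Of the other subunit and FXYD genes, Fxyd5, Fxyd7, Atp1a4 and Atp1b4 are reported, each with 1 probe. Limma called 1 of these higher and 3 not, where 4.60 percent of all probes were called higher. Fxyd5, or dysadherin, which also affects cell adhesion, was at 7.36, 7.46, 7.51 and 7.83 in the secretory stage of rats 1 to 4 and at 9.20, 8.85, 8.99 and 8.77 in the maturation stage. The stages did not overlap. It rose by 1.41 with a standard error of 0.121, or 2.67-fold, with an adjusted p of 1.96e-05 by limma, and was higher in 4 of 4 rats. The lists were chosen with earlier results of these data known. The adjusted p-values given here and for the lists below therefore describe the fit across all probes and are no independent support. Atp1a4, known from sperm, Atp1b4, known from muscle, and Fxyd7, known from brain, were not detected on any array. The related proton and potassium pump genes Atp4a, Atp4b and Atp12a were not detected on any array either, so Atp1b1, Atp1b2 and Atp1b3 were the beta subunit genes detected among those probed.

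Sodium entry into the cell supplies the pump's substrate, and 9 of 12 listed genes of sodium entry and its control were found on the array by symbol, all detected. By limma 3 were higher in the maturation stage, 2 lower and 4 not called. Over all probes 4.60 percent were called higher and 3.15 percent lower. The median difference was 0.48 against -0.01 over all 22523 probes, of which 13512 were detected on any array. Slc4a4, a sodium bicarbonate cotransporter of the basolateral membrane, rose from a mean of 7.08 to 9.12, by 2.04 with a standard error of 0.147 and an adjusted p of 6.38e-06. Wnk4, a kinase that controls sodium and chloride carriers, rose from 9.63 to 10.54, by 0.91 with a standard error of 0.135 and an adjusted p of 0.000686, and it was below the limit without secretory replicate 4, at 0.82, and without maturation replicate 2, at 0.80.

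The subunits of the epithelial sodium channel differed from each other. Scnn1a, the alpha subunit, rose from 5.26 to 6.39, by 1.13 with a standard error of 0.127 and an adjusted p of 0.000115, and was detected on 3 secretory arrays and 4 maturation arrays. It was below the limit without background correction, at 0.44, and with an offset of 50, at 0.70. Scnn1b, the beta subunit, fell from 8.60 to 6.39, by 2.21 on the log2 scale with a standard error of 0.202 and an adjusted p of 3.02e-05 by limma. Its maturation value in rat 1, 7.01, stood above the 6.09 to 6.31 of the other rats, and the difference was -2.41 without maturation replicate 1 and -1.43 without background correction. Nedd4l, a ubiquitin ligase that takes this channel off the membrane, fell from 9.95 to 8.54, a difference of -1.41 with a standard error of 0.0812 and an adjusted p of 1.54e-06, and of -0.88 without normalization between arrays. Scnn1g, the gamma subunit, at -0.51 was not called.

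Potassium brought in by the pump leaves again through channels. Of 9 listed potassium channel genes, limma called Kcnn4 higher and 8 not, and 7 were not detected on any array. The other detected gene, Kcnq1, went the other way at -0.41 and was not called. Its stages did not overlap, and its difference ran from -0.27 in rat 1 to -0.61 in rat 4. Kcnn4, a calcium-activated potassium channel, rose from a mean of 5.38 to 11.52, by 6.14 with a standard error of 0.195 and an adjusted p of 5.14e-08, with detection on 3 secretory arrays and 4 maturation arrays. The difference was 4.50 without background correction and 5.29 with an offset of 50. Over all 4 lists of pump-related genes 5 of 25 reported probes were higher and 2 lower, where 4.60 and 3.15 percent of all probes were. On any array 12 of the 25 were detected, against 13512 of all 22523 probes. The median difference was 0.04 against -0.01 over all probes. Nothing is read from these counts, since the lists were chosen with earlier results of these data known.

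**Figure D3:**
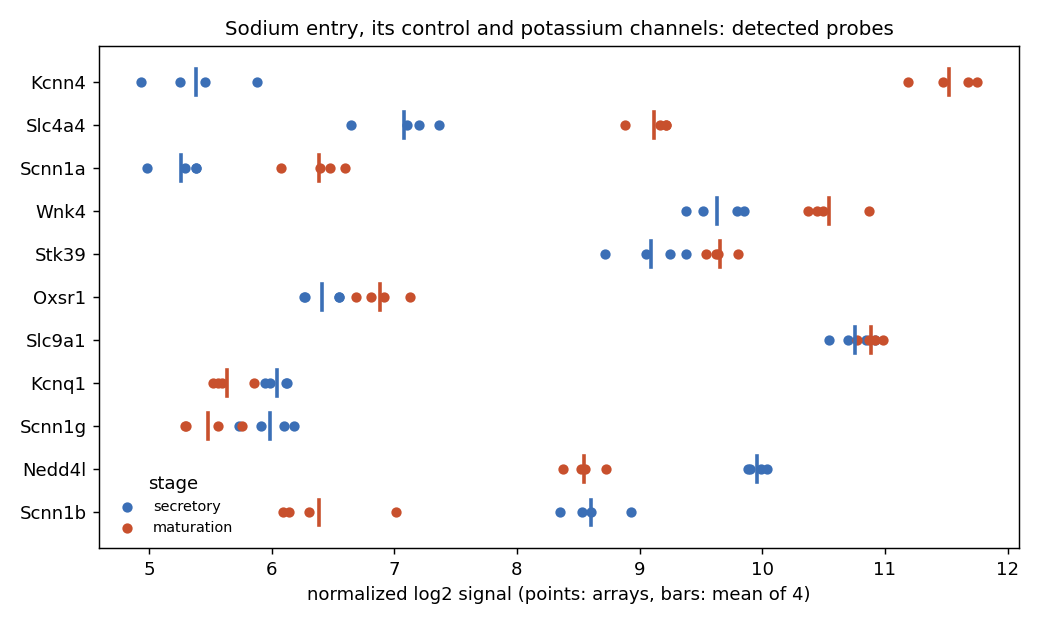
Normalized log2 signal on each array for the detected probes of the sodium entry and potassium channel lists, with a bar for the mean of each stage's 4 arrays. Kcnn4 and Slc4a4 lie to the right in the maturation stage, and Nedd4l and Scnn1b to the left.

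In the rat gene table of GRCr8, used for gene order only, Fxyd5, Fxyd7, Fxyd1, Lgi4 and Fxyd3 follow each other on chromosome 1. Within this run Fxyd5 and Fxyd1 were called higher, Fxyd3 was called lower and Fxyd7 was not detected. Fxyd6 and Fxyd2 are adjacent on chromosome 8, and neither was called. Neighbouring genes of the FXYD family thus held different stage values, including the opposite directions of Fxyd1 and Fxyd3 with 1 gene between them.

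The 2 probes of other genes whose pattern over the 8 arrays was most like each probe were found by Pearson's r among 10529 or 10530 detected probes. The arrays fall into 2 stages and the stage difference enters each r, so it is a description and carries no p-value. Atp1b3 was most like Pfkp, a phosphofructokinase of glycolysis, at r of 0.999, and Ccdc3 at 0.998. Atp1b2 was most like Ranbp9 at 0.995 and Tnnt2 at 0.991, and Atp1b1 was most like Tnfsf11, the cytokine RANKL, at 0.993 and Pdcd2 at 0.991.

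Fxyd3 was most like Scn10a, a voltage-gated sodium channel subunit, and Chrna10, an acetylcholine receptor subunit, both at 0.999. Fxyd4 was most like Gemin2 at 0.999 and Ddx25 at 0.998. Fxyd1 was most like Smarce1 at 0.985 and the unnamed LOC501015 at 0.983. The variant a probe of Fxyd2 was most like Marchf7 at 0.990 and Socs3 at 0.988, and the variant b probe was most like Chrnb1 and Ptges, at 0.976 and 0.975. Fxyd6 was most like Alox5 at 0.976 and LOC363897 at 0.968. None of these genes was in the lists of pump-related genes.

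The stage labels were set against markers of the 2 stages and of other cell types. All 4 maturation ameloblast probes (Klk4 with 2 probes, Slc24a4 and Ca2) were higher in the maturation stage, with a summed normalized signal of 865 to 1214 in the secretory stage and 25912 to 29957 in the maturation stage. Of the secretory ameloblast markers, Enam and Mmp20 were lower in the maturation stage, with log2 differences of -4.98 and -4.03, while Amelx and Ambn were bright in both stages and not called. Enam differed among the maturation arrays, at 9.08, 5.17, 5.53 and 8.22 in rats 1 to 4. The highest maturation values of Mmp20, Enam and Fxyd4 were all in rat 1, although Fxyd4 was not detected there. Without maturation replicate 1 the difference of Fxyd3 was -1.87, that of Atp1b3 was 1.29 and that of Fxyd1 was 0.80, no longer called, which left 2 of the 9 probes called higher. The part of this spread in the values of the sodium pump genes was not tested.

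Leukocyte markers moved with the stage as well, with 4 of 7 probes higher (Cd14, Cd68, Lcp1 and Ptprc), where 4.60 percent of all probes were. None was lower here or at limma's unadjusted p below 0.05. Another Lcp1 probe, at -0.08, was not detected on any array. The summed normalized signal of the list was 3329 to 4023 in the secretory stage and 8881 to 11448 in the maturation stage. Of the fibroblast markers 0 of 6 were called by limma or the Student test, with 3 higher at an unadjusted p below 0.05. Of the endothelial markers Vwf of 3 was higher with Cdh5 not detected, and of the smooth muscle and pericyte markers Rgs5 of 5 probes was higher. The part of these cells in the values of the sodium pump genes was not tested. The tissue source given for the maturation arrays of rats 2, 3 and 4 reads as secretory, unlike the rest of their labels, and 8 of 8 arrays correlated more with the stage of their titles. Deposited signals summed to 11881700 to 12046800 per secretory array and 13355100 to 16122700 per maturation array, with 10667 to 10941 and 11164 to 11450 probes detected.

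**Figure D4:**
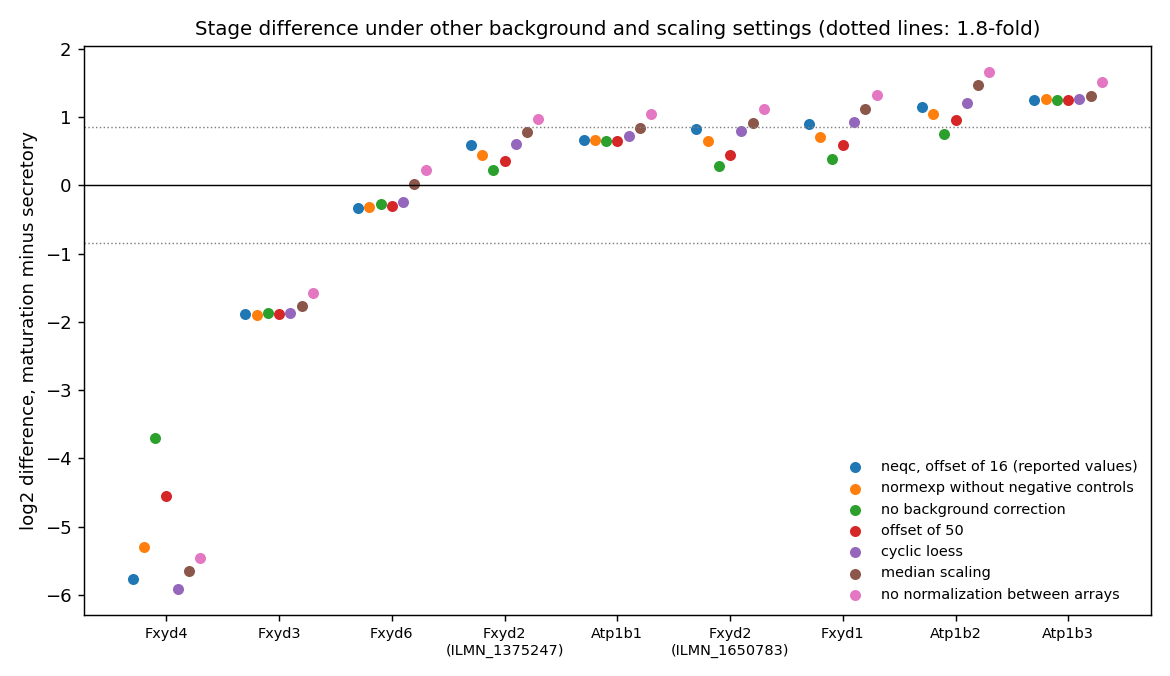
Log2 difference of the 9 probes, maturation minus secretory, under the reported setting and 6 other settings of background correction, offset and scaling. Atp1b3 and Fxyd3 stay close together, Atp1b1, Atp1b2, Fxyd1 and both Fxyd2 probes lie on either side of the dotted 1.8-fold line depending on the setting, and Fxyd6 crosses 0.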

How the data were processed

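Total RNA of each enamel organ sample was labelled with biotin and hybridized to Illumina RatRef-12-v1 Expression BeadChips. The deposited table held, per probe and array, the bead-averaged signal intensity, not normalized, with the standard error of the beads, the number of beads and a detection p-value against negative control beads. The software that exported it is not given in the sources used here. From the deposited intensity values, signals were background-corrected by neqc (offset 16), which here worked out the negative control level from the detection p-values, quantile-normalized and taken to log2 in limma 3.58.1 (R 4.3.3), so log2 differences of dim probes are understated by the offset. The stages were compared with lmFit and eBayes, unpaired, with Benjamini-Hochberg adjustment over all 22523 probes. The study's methods name a two-tailed Student test, which was run as an alternative. The detection threshold was p below 0.05. A probe undetected on all 4 arrays of a stage got a lower bound on its fold.

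The genes and lists were chosen with earlier results of these data known. Named were each probe of the 8 genes and of the other subunits (some of which are not reported here), called probes of the remaining lists, and the 2 probes most like each of the 9. Uncalled genes of the other lists and the markers were named after their values were seen. Samples of a rat share an animal, and their deviations from the stage means correlated at 0.195, 0.129, 0.219 and 0.234 over 11233 probes. The fit was tested on simulated data. Gene names were updated by gene ID through the RefSeq gene table, which held all 8 genes. The limited number of arrays sets the precision. Alternatives were other background corrections, offsets, scalings, filters and tests, the rat as a block, and each array left out.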

Additional observations from a re-analysis of the deposited data

Results flagged for a closer look

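Fxyd1 in secretory replicate 1 stood apart from the other 3 secretory arrays. Its normalized log2 signal was 6.04, where the nearest array was at 5.58 and the farthest at 5.49, so the gap made up 0.842 of the range. The same rat also had the highest Fxyd1 value in the maturation stage, 6.81. Without secretory replicate 1 the Fxyd1 difference was 1.03. Over 19 groups of 4 values examined this was the 1 that stood apart, and chance gives about 0.95 at a rate of 1 in 20.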

How the results depend on the processing

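Of all probes 1745 were called, 923 without background correction, 1705 to 1806 with 1 array left out and 1750 with the rat as a replicate block, which changed no call of the 9 probes. Of the 9 probes 3 were called higher, 1 (Atp1b3) without background correction, 6 without normalization between arrays (chosen after seeing the data) and 2 to 4 with 1 array left out, while 2 were called lower in every setting run. Of the other pump-related probes 5 were higher, 3 without background correction, 6 with scaling to a common median, 7 without normalization and 4 to 5 with 1 array left out, and 2 were lower, 2 to 2 with 1 array left out. Called probes were 59.3 percent higher ones, 77.6 percent with scaling to a common median (2075 called) and 87.2 percent without normalization (2600 called), where the median of all probes was 0.13. Fxyd1 fell below the limit at 0.71 with normexp without negative controls, 0.38 without background correction and 0.59 with an offset of 50. Wnk4 fell below it at 0.84 without background correction. Past the limit came Fxyd2 variant b at 0.91 with scaling to a common median, 0.88 without maturation replicate 3 and 1.11 without normalization, and Fxyd2 variant a at 0.97 without normalization. No called value changed direction. Dim probes, Fxyd1 and both Fxyd2 probes among them, lie near background, which limits their folds.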
